A study of Rattus norvegicus with 9 samples.

Results

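The genes described here encode voltage-gated and related ion channels, the membrane proteins that let potassium, sodium, calcium, chloride or mixed cations pass, together with the accessory subunits that bind them. They are the genes of the deposited read count table whose symbol begins with Kcn, Cacn or Clcn, or with Scn, Hcn, Trpa, Trpc, Trpm or Trpv followed by a digit, and that had at least 10 reads in 3 or more of the 9 samples. Of 17327 genes in the table, 164 matched by name and 94 of these passed the read minimum. 1 further gene matching the pattern was left out by the rule and is not analysed here. The choice used names and read numbers and no difference between groups. The 94 genes comprise 35 potassium channel pore genes, 11 potassium channel accessory genes, 8 sodium pore and 3 sodium beta subunit genes, 7 calcium pore and 6 calcium accessory genes, 3 Hcn genes, 7 Clcn genes, and 3 Trpc, 5 Trpm, 3 Trpv and 1 Trpa genes. The remaining 2 match by name only: Trpc4ap encodes a protein that binds a TRPC channel, and Kcnrg a regulator of potassium channel assembly.

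RNA was sequenced from primary ventricular cardiomyocytes of newborn rats in culture, a cell model that beats and enlarges in response to growth stimuli. For 48 hours the cells received 50 µM phenylephrine, an agonist of α1-adrenergic receptors, or 10 nM IGF1, a ligand of the IGF1 receptor, or vehicle, with 3 samples in each of the 3 groups. No strain, sex, genetic change or age beyond newborn is named for any group, and the study's stated subject is hypertrophic growth. Separate cultures or animals are not named in the labels, and the p-values cover only the differences among these 9 samples, part of which may be technical.

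In a ventricular myocyte, inward rectifier potassium channels hold the resting potential, sodium channels carry the upstroke of the action potential and calcium channels carry its plateau and trigger contraction. Several kinds of outward potassium channel then return the membrane to rest, and HCN channels carry the pacemaker current of the sinus node and of immature myocytes. Smaller transient outward and inward rectifier potassium currents are a known feature of hypertrophied and failing hearts.

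The samples held 31274396 to 48505265 reads, and a level of 1 CPM (a gene's read count relative to the sample's total, scaled by normalization factors) rested on 29.1 to 51.6 reads. The ion channel genes took 0.244% to 0.257% of the reads of the phenylephrine samples, 0.291% to 0.315% of those of the IGF1 samples and 0.306% to 0.314% of those of the vehicle samples. All 13 markers of cardiomyocytes were present, with a summed level of 59731 to 60348 CPM with phenylephrine, 53241 to 66704 CPM with IGF1 and 47566 to 51378 CPM with vehicle. IGF1 replicate 1 stood apart from its group: 223 and 259 of 9301 genes differed more than 1.5-fold between it and the other IGF1 samples, against 5 to 28 genes in every other pair of samples of one group. Its level lay beyond both other IGF1 samples on the side of the phenylephrine mean for 6890 of 11873 tested genes and for 56 of 93 tested ion channel genes, and the overall counts below are therefore also given without it.

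The summed markers of some other cell types differed between the groups, while those of leukocytes overlapped. All 12 markers of smooth muscle and pericytes were present, some of which, such as Des and Abcc9, cardiomyocytes also express. They summed to 7840 to 8106 CPM with phenylephrine, 4274 to 6155 CPM with IGF1 (the highest in replicate 1) and 3988 to 4068 CPM with vehicle. Of these 12, 6 rose and 3 fell with phenylephrine, where 27.9% of all tested genes rose and 28.9% fell. With IGF1 3 rose and 2 fell, where 24.7% of all tested genes rose and 23.4% fell. The 11 fibroblast markers summed to 4735 to 4828 CPM with phenylephrine, 5976 to 6901 CPM with IGF1 and 5089 to 6086 CPM with vehicle. Beside the same shares, 1 of the 10 tested fibroblast markers rose and 4 fell with phenylephrine. With IGF1 5 rose and 1 fell. The 10 endothelial markers summed to 184 to 200.1 CPM with phenylephrine, 119 to 121 CPM with IGF1 and 170.1 to 192 CPM with vehicle. Of the 9 tested, 1 rose and 1 fell with phenylephrine, and 0 rose and 6 fell with IGF1. Of 12 neuron markers, 11 had a row and Chat had no read in any sample. The others summed to 104 to 107 CPM with phenylephrine, 63.3 to 67.2 CPM with IGF1 and 63.7 to 68.3 CPM with vehicle. Only 7 neuron markers were tested, of which 3 rose and 0 fell with phenylephrine, with a median log2 fold change of 0.07. The 10 leukocyte markers summed to 77.0 to 97.0 CPM with phenylephrine, 77.5 to 84.2 CPM with IGF1 and 82.8 to 95.1 CPM with vehicle, and the 6 Schwann cell markers with a row to 8.47 to 11.9 CPM with phenylephrine, 11.2 to 11.7 CPM with IGF1 and 14.9 to 15.7 CPM with vehicle. Their part in the results below was not tested, and in these bulk samples fewer cells of a type and less RNA per cell cannot be told apart.

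Phenylephrine lowered more ion channel genes than it raised. Against vehicle, 13 of the 93 tested ion channel genes rose and 38 fell at an adjusted p under 0.05 (edgeR's quasi-likelihood test, Benjamini-Hochberg over all 11873 tested genes), where 27.9% of all tested genes rose and 28.9% fell. Of these, 8 rose and 28 fell at least 1.5-fold, where 7.57% of all tested genes rose and 10% fell by as much. The median log2 fold change of the ion channel genes was -0.20, against -0.03 for all tested genes. Without IGF1 replicate 1, 14 rose and 39 fell, where 31.2% of all tested genes rose and 32.2% fell. Every phenylephrine sample lay above every vehicle sample for 20 of the 93 and below for 40, where this held for 32.6% and 34% of all tested genes. Of the 51 calls, 42 held at the same threshold in every alternative fit that tested the gene. Potassium channel pore genes made up 18 of the 38 that fell and 4 of the 13 that rose, and they were 34 of the 93 tested.

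With IGF1 against vehicle, the ion channel genes split evenly: 21 rose and 20 fell, where 24.7% of all tested genes rose and 23.4% fell. At least 1.5-fold, 12 rose and 9 fell, where 5.76% of all tested genes rose and 5.9% fell. The median log2 fold change was 0.06, against -0.00 for all tested genes, and without IGF1 replicate 1 the counts were 25 higher and 20 lower, where 27.4% of all tested genes rose and 26.6% fell. Every IGF1 sample lay above every vehicle sample for 26 of the 93 and below for 23, where this held for 28.8% and 27.7% of all tested genes. Of the 41 calls, 31 held at the same threshold in every alternative fit that tested the gene. Of the 34 tested potassium pore genes, 6 rose and 7 fell.

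**Figure D1:**
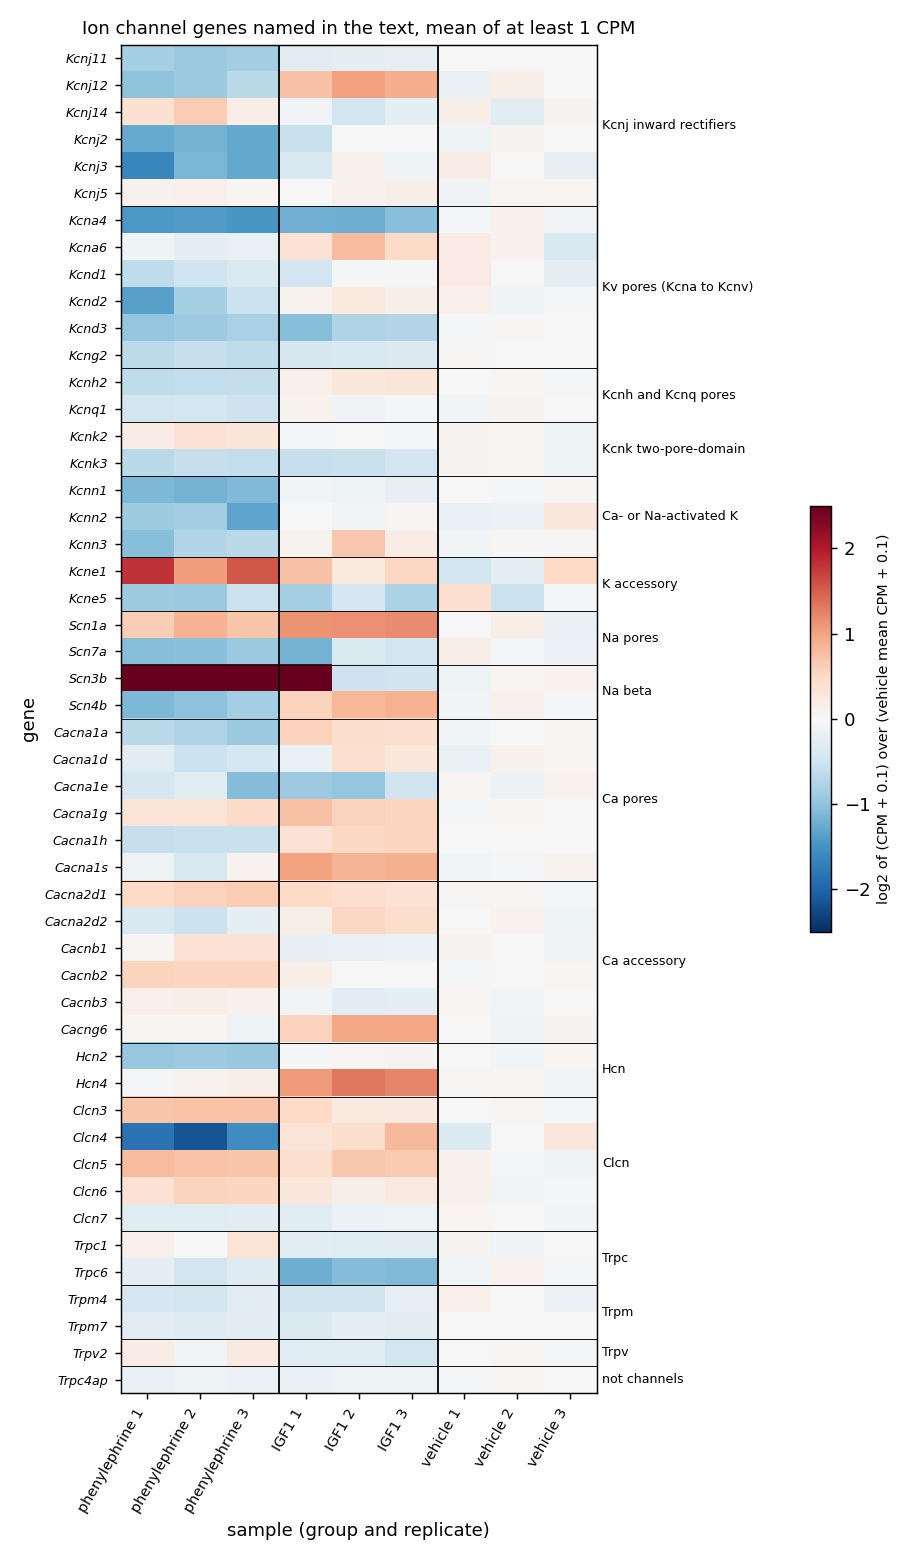
Level of 50 ion channel genes named in the text with a mean of at least 1 CPM over the 9 samples, 1 row per gene and 1 column per sample, coloured by the log2 ratio of (CPM + 0.1) to (vehicle mean CPM + 0.1) and capped at 2.5 in either direction. Kcnj2, Kcnj3, Kcnj11, Kcnj12 and the 3 Kcnn genes are blue in the phenylephrine columns, of which Kcnj12 is red in the IGF1 columns, and Scn3b is dark red in the phenylephrine columns and in IGF1 replicate 1.

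**Figure D2:**
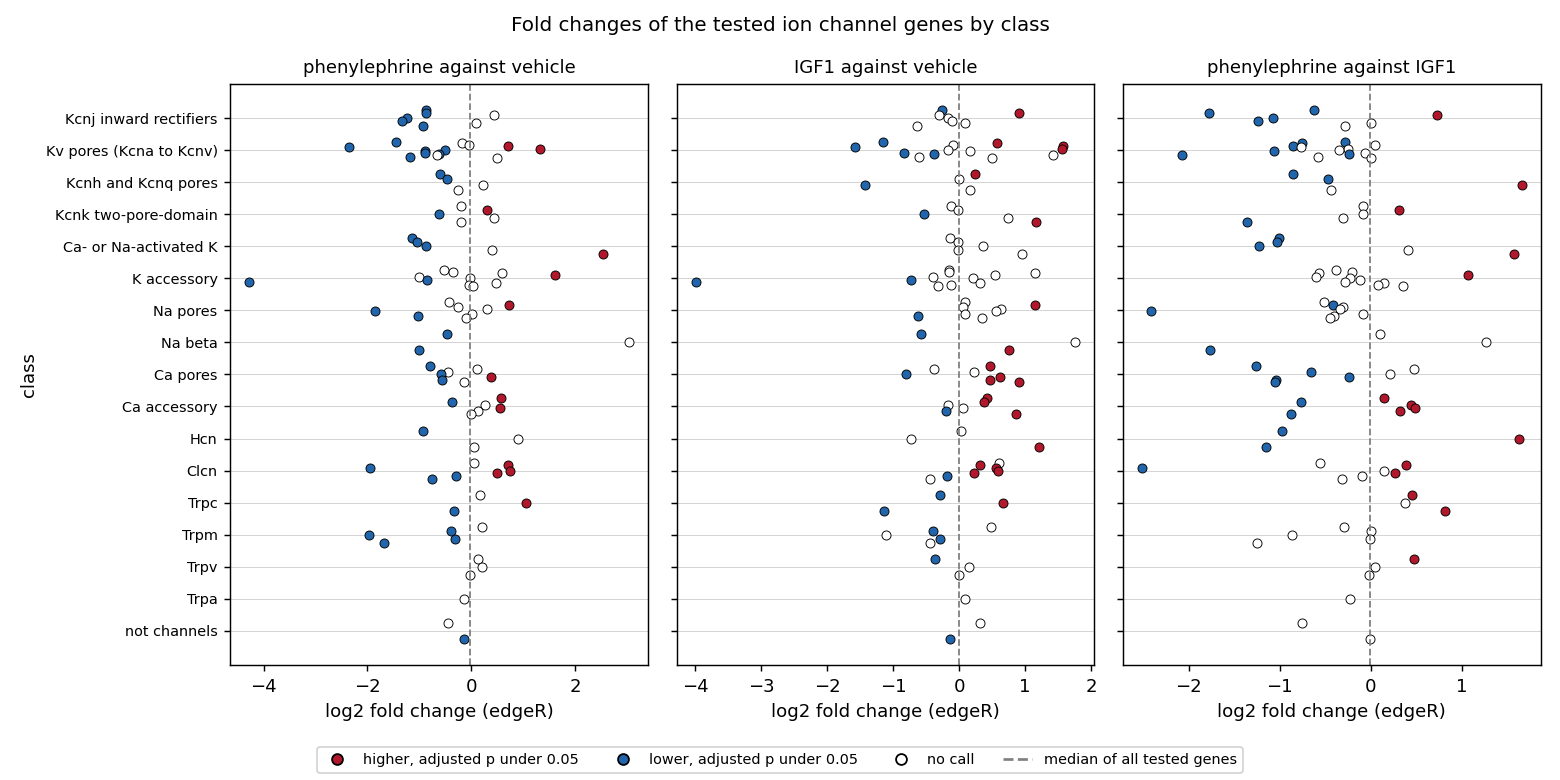
Log2 fold change of each of the 93 tested ion channel genes (horizontal axis) by class (vertical axis), for phenylephrine against vehicle, IGF1 against vehicle and phenylephrine against IGF1, with the median of all tested genes as a dashed line. Filled points passed an adjusted p of 0.05, and the 38 genes lower with phenylephrine lie to the left of the line in the left panel.

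Among the 7 inward rectifier genes (Kcnj), 5 fell with phenylephrine and none rose, with a median log2 fold change of -0.87. With IGF1 1 rose and 1 fell. Beside these and the class counts below, 27.9% of all tested genes rose and 28.9% fell with phenylephrine. For IGF1 these shares were 24.7% and 23.4%. Kcnj2, the main pore of the current that holds the resting potential, had 16.5, 17.4 and 16.4 CPM in the phenylephrine samples, 27, 39.3 and 39.2 CPM in the IGF1 samples and 37, 41.7 and 40.1 CPM in the vehicle samples. The phenylephrine samples lay below all others, and IGF1 replicate 1 lay below the other IGF1 samples, which lay within the range of vehicle. The log2 fold change of Kcnj2 (± SE here and below) was -1.24 ± 0.13, adjusted p = 1.7e-05 for phenylephrine and -0.16 ± 0.12, adjusted p = 0.30 for IGF1.

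Kcnj12, a further pore of the same current, had 10.3, 10.8 and 12.9 CPM in the phenylephrine samples, 34.6, 41.9 and 39.2 CPM in the IGF1 samples and 18.5, 22.8 and 20.7 CPM in the vehicle samples. The 3 groups did not overlap and the stimuli moved it in opposite directions, down with phenylephrine (-0.87 ± 0.10, adjusted p = 6.1e-06) and up with IGF1 (0.90 ± 0.09, adjusted p = 2.7e-06). Kcnj11, the pore of the ATP-sensitive potassium channel, had 63.8, 59.8 and 62.5 CPM in the phenylephrine samples, 92.8, 95.6 and 97.9 CPM in the IGF1 samples and 113, 115 and 113 CPM in the vehicle samples. It fell with phenylephrine (-0.87 ± 0.04, adjusted p = 6.2e-10) and less with IGF1 (-0.25 ± 0.04, adjusted p = 1.5e-04), and the direct comparison of the stimuli gave -0.62 ± 0.04, adjusted p = 1.3e-08.

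Kcnj3, a subunit of the acetylcholine-activated potassium channel, averaged 5.24 ± 0.896 CPM with phenylephrine, 12.4 ± 2.14 CPM with IGF1 and 13.3 ± 1.88 CPM with vehicle (SD, n = 3 each). All phenylephrine samples lay below all others, while IGF1 and vehicle overlapped, and the log2 fold change with phenylephrine was -1.34 ± 0.16, adjusted p = 7.3e-06. Kcnj5, its partner subunit, had 30.6 ± 0.80 CPM with phenylephrine, 30.4 ± 1.58 CPM with IGF1 and 28.6 ± 1.45 CPM with vehicle. Kcnj5 passed no test, with log2 fold changes of 0.10 for phenylephrine and 0.09 for IGF1. Kcnj8, an ATP-sensitive pore of vascular muscle, was low, at 0.446, 0.767 and 0.679 CPM in the phenylephrine samples, 0.79, 0.971 and 0.566 CPM in the IGF1 samples and 1.17, 1.03 and 1.4 CPM in the vehicle samples. It fell with phenylephrine (-0.92 ± 0.31, adjusted p = 0.018), a call that ended without phenylephrine replicate 1 (adjusted p = 0.077) or vehicle replicate 3 (adjusted p = 0.068). Kcnj14, a further inward rectifier, was higher with phenylephrine than with IGF1 (0.72 ± 0.24, adjusted p = 0.017), and that call ended without phenylephrine replicate 2 (adjusted p = 0.080) or IGF1 replicate 2 (adjusted p = 0.078).

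The promoter of Kcnj2 is shown because this gene encodes the main pore of the resting current and fell with phenylephrine. It held none of the motifs searched. The stretch runs from 250 bases before to 50 bases after the gene start in the RefSeq annotation of build GRCr8, at chr10:96559975-96560274 on the plus strand, and was matched by symbol since the reads were mapped to another build.
Kcnj2: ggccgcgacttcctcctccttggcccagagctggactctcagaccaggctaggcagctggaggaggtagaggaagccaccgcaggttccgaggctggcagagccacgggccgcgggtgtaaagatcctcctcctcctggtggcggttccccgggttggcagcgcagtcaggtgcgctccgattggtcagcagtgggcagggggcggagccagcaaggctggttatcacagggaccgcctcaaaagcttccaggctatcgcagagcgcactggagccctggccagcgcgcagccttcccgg

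Of 13 tested voltage-gated potassium pore genes of the Kcna to Kcnv families, 7 fell and 2 rose with phenylephrine, and 4 fell and 3 rose with IGF1. The pores of the transient outward current were lower with phenylephrine. Kcna4, the pore of its slowly recovering part, had 13.5, 13.5 and 13.2 CPM in the phenylephrine samples, 15.9, 15.6 and 17.5 CPM in the IGF1 samples and 35.5, 39 and 34.9 CPM in the vehicle samples. Every treated sample lay below every vehicle sample, with log2 fold changes of -1.44 ± 0.07, adjusted p = 6.7e-10 for phenylephrine and -1.16 ± 0.07, adjusted p = 5.6e-09 for IGF1. Kcnd3, a pore of the fast part, had 23.5, 24.5 and 26.3 CPM in the phenylephrine samples, 22.1, 27.5 and 27.9 CPM in the IGF1 samples and 44.8, 46.8 and 46.6 CPM in the vehicle samples. The gene fell with phenylephrine (-0.89 ± 0.08, adjusted p = 2.2e-07) and with IGF1 (-0.83 ± 0.08, adjusted p = 5.5e-07). The direct comparison of the stimuli gave -0.07 ± 0.08, adjusted p = 0.51. Without IGF1 replicate 1 it gave -0.16 ± 0.06, adjusted p = 0.020, lower with phenylephrine.

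Kcnd2, the other main pore of the fast current in rodents, had 1.68 ± 0.484 CPM with phenylephrine, 3.51 ± 0.203 CPM with IGF1 and 3.13 ± 0.269 CPM with vehicle. Its log2 fold change was -0.90 ± 0.20, adjusted p = 0.0013 for phenylephrine and 0.17 ± 0.18, adjusted p = 0.47 for IGF1, and the direct comparison gave -1.06 ± 0.20, adjusted p = 3.4e-04. Kcnip2 encodes the subunit that brings these pores to the membrane, and it had 0, 2 and 1 reads in the phenylephrine samples, 0, 1 and 4 reads in the IGF1 samples and 39, 30 and 29 reads in the vehicle samples. The summed level of the phenylephrine samples was 0.0476 of that of the vehicle samples (95% exact interval 0.00965 to 0.143, counting error only), and the gene passed the test with both stimuli (adjusted p = 8.4e-05 for phenylephrine and 6.8e-05 for IGF1). Even with vehicle it did not reach 1 CPM.

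Kcng2, a silent subunit that joins Kcnb pores, had 158 ± 5.21 CPM with phenylephrine, 186 ± 5.11 CPM with IGF1 and 242 ± 3.37 CPM with vehicle. This subunit fell with phenylephrine (-0.62 ± 0.04, adjusted p = 1.1e-08) and with IGF1 (-0.38 ± 0.04, adjusted p = 2.1e-06). Kcns3, a further silent subunit, fell with phenylephrine (-1.19 ± 0.37, adjusted p = 0.013), but the call ended without phenylephrine replicate 1 (adjusted p = 0.060) or vehicle replicate 2 (adjusted p = 0.053).

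The pores of the delayed rectifier currents that end the action potential were also lower with phenylephrine. Kcnh2, the pore of the rapid current, had 94.7, 95.5 and 96.4 CPM in the phenylephrine samples, 160.5, 176 and 179.8 CPM in the IGF1 samples and 145, 152 and 142 CPM in the vehicle samples. Phenylephrine lowered it (-0.61 ± 0.05, adjusted p = 5.9e-08) and IGF1 raised it (0.24 ± 0.05, adjusted p = 6.4e-04), although the rise with IGF1 ended when samples were scaled by library size alone (adjusted p = 0.056). Kcnq1, the pore of the slow current, had 84.8 ± 2.56 CPM with phenylephrine, 117 ± 7.45 CPM with IGF1 and 118 ± 5.29 CPM with vehicle (SD, n = 3 each), and fell with phenylephrine (-0.47 ± 0.05, adjusted p = 2.1e-06) with no call for IGF1 (-0.01 ± 0.05, adjusted p = 0.94).

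Kcne1, the accessory subunit that slows Kcnq1, showed the largest rise with phenylephrine among ion channel genes past the threshold with at least 1 CPM in a group. Its level was 2.61, 1.5 and 2.16 CPM in the phenylephrine samples, 1.18, 0.813 and 1.01 CPM in the IGF1 samples and 0.465, 0.562 and 0.989 CPM in the vehicle samples, resting on 47 to 76 reads in the phenylephrine samples. Each phenylephrine sample lay above each IGF1 and each vehicle sample, with a log2 fold change of 1.62 ± 0.31, adjusted p = 4.4e-04 against vehicle, or 3.07-fold. The IGF1 and vehicle samples overlapped (0.55 ± 0.33, adjusted p = 0.18). Of the 11 potassium accessory genes, 1 rose and 2 fell with phenylephrine, and Kcne5, an inhibitory subunit, fell with both stimuli (-0.85 ± 0.30, adjusted p = 0.024 for phenylephrine and -0.73 ± 0.28, adjusted p = 0.045 for IGF1). The Kcne5 call for phenylephrine ended without phenylephrine replicate 1 (adjusted p = 0.075) or 2 (adjusted p = 0.082) or vehicle replicate 1 (adjusted p = 0.13), and that for IGF1 ended in 10 of the alternatives tried. Among these were leaving out IGF1 replicate 1 or 3, any phenylephrine replicate, or vehicle replicate 1 or 3, with adjusted p between 0.052 and 0.24.

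The promoter of Kcne1 is shown as that of the gene with this rise, with its match to the AP-1 motif TGANTCA in capitals (RefSeq, GRCr8, chr11:45076984-45077283, minus strand).
Kcne1: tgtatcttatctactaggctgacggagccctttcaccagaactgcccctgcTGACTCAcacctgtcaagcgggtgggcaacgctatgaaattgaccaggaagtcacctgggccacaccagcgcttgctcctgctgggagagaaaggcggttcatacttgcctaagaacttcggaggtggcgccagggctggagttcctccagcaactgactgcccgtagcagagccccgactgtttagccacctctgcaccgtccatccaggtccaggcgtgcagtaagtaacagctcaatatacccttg

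Among 5 tandem-pore-domain genes, which carry background potassium current, 1 rose and 1 fell with phenylephrine. Kcnk3, an acid-sensitive background pore, had 45.4, 48.4 and 47.2 CPM in the phenylephrine samples, 48.6, 49.4 and 51.8 CPM in the IGF1 samples and 76, 74.7 and 66.4 CPM in the vehicle samples. Both stimuli lowered it, by log2 fold changes of -0.62 ± 0.06, adjusted p = 2.7e-07 for phenylephrine and -0.53 ± 0.05, adjusted p = 1.6e-06 for IGF1, with no overlap with vehicle. Kcnk2, a stretch-sensitive pore, had 10.3 ± 0.655 CPM with phenylephrine, 8.31 ± 0.164 CPM with IGF1 and 8.43 ± 0.658 CPM with vehicle. A rise passed the test with phenylephrine (0.29 ± 0.09, adjusted p = 0.015). That call ended without phenylephrine replicate 2 (adjusted p = 0.063), without vehicle replicate 3 (adjusted p = 0.087) and under scaling by library size alone (adjusted p = 0.41). Against IGF1 its call (0.31 ± 0.10, adjusted p = 0.012) also ended without phenylephrine replicate 2 (adjusted p = 0.051) and by library size alone (adjusted p = 0.11). Kcnk5, a further background pore, rose with IGF1 (1.16 ± 0.31, adjusted p = 0.0058), at 0.987, 0.994 and 1.87 CPM in the IGF1 samples against 0.485, 0.611 and 0.64 CPM in the vehicle samples, and the call ended without IGF1 replicate 3, the highest sample (adjusted p = 0.068). Kcnk1, a weak background pore, stayed under 1 CPM in every group and passed no test.

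The 3 small-conductance calcium-activated potassium genes all fell with phenylephrine, and none passed the test with IGF1. In some alternatives Kcnn1 did pass as lower with IGF1. These were limma-voom (-0.15, adjusted p = 0.040), library size alone (-0.22, adjusted p = 0.012) and leaving out IGF1 replicate 1 (-0.17, adjusted p = 0.042). Kcnn1 had 11, 10.6 and 11.2 CPM in the phenylephrine samples, 23, 22.2 and 20.9 CPM in the IGF1 samples and 24.1, 23.8 and 24.7 CPM in the vehicle samples. Its phenylephrine samples lay below all others, with a log2 fold change of -1.14 ± 0.07, adjusted p = 4.7e-09. Kcnn2 (-1.04 ± 0.17, adjusted p = 1.1e-04) and Kcnn3 (-0.86 ± 0.24, adjusted p = 0.0061) also fell with phenylephrine, and the direct comparison of phenylephrine with IGF1 was past the threshold for all 3, with Kcnn2 at -1.03 and Kcnn3 at -1.23. Kcnt2, a sodium-activated potassium pore, rose with phenylephrine (2.53 ± 0.49, adjusted p = 4.7e-04), at 0.309, 0.927 and 0.743 CPM in the phenylephrine samples against 0.142, 0.0733 and 0.116 CPM in the vehicle samples. It lies outside the rule for named genes because no group averaged 1 CPM, and was picked after its values were seen.

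**Figure D3:**
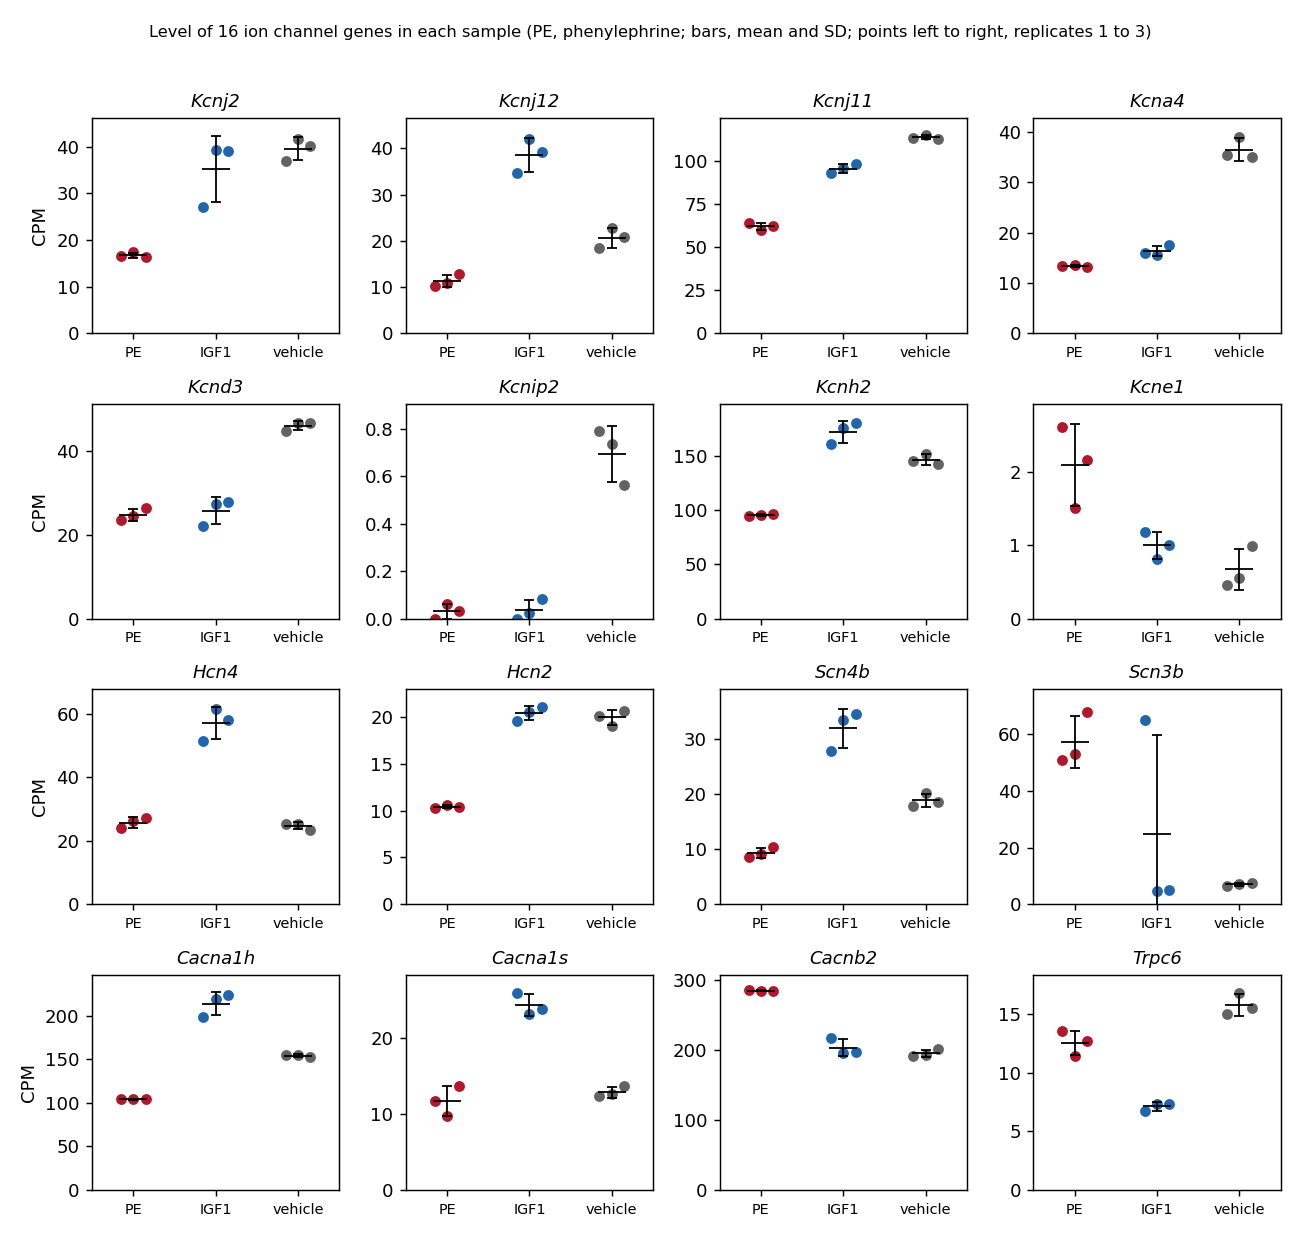
Level in CPM (vertical axis) of 16 ion channel genes in each sample, with phenylephrine (PE), IGF1 and vehicle from left to right, and bars for the mean and SD of 3 samples. The phenylephrine points of Kcnj2, Kcnj12, Kcnh2, Hcn2, Scn4b and Cacna1h lie below all other points, and in the Scn3b panel IGF1 replicate 1 lies at 65.0 CPM among the phenylephrine samples.

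Of 8 sodium pore genes, 1 rose and 2 fell with phenylephrine, and 1 rose and 1 fell with IGF1. Scn1a, a pore best known from neurons, rose with both stimuli and had 28.4, 33.9 and 30.2 CPM in the phenylephrine samples, 40.5, 40.9 and 42 CPM in the IGF1 samples and 18.6, 20.5 and 16.6 CPM in the vehicle samples. The 3 groups did not overlap, and its log2 fold change was 0.73 ± 0.08, adjusted p = 2.2e-06 for phenylephrine and 1.15 ± 0.08, adjusted p = 2.4e-08 for IGF1. Scn7a, a sodium-sensing pore, fell with both, at -1.03 ± 0.17, adjusted p = 1.6e-04 for phenylephrine and -0.62 ± 0.17, adjusted p = 0.0064 for IGF1. Scn4a, the skeletal muscle pore, averaged under 1 CPM in every group but fell with phenylephrine (-1.84 ± 0.40, adjusted p = 0.0012), and it too was picked after its values were seen.

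Sodium beta subunits modulate the pores and bind cell adhesion partners. Scn4b had 8.59, 9.18 and 10.3 CPM in the phenylephrine samples, 27.8, 33.4 and 34.5 CPM in the IGF1 samples and 17.8, 20.2 and 18.5 CPM in the vehicle samples. Its 3 groups did not overlap, and phenylephrine lowered it (-1.01 ± 0.10, adjusted p = 5.8e-07) while IGF1 raised it (0.76 ± 0.09, adjusted p = 5.1e-06).

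Scn3b is given outside the naming rule, chosen after its values were seen, because 1 library lies far from the rest of its group. Its level was 50.8, 53.2 and 67.8 CPM in the phenylephrine samples, 65, 4.86 and 4.95 CPM in the IGF1 samples and 6.41, 7.21 and 7.4 CPM in the vehicle samples. IGF1 replicate 1 thus lay within the phenylephrine range, whereas the other IGF1 samples lay below all vehicle samples. With all 9 samples, edgeR's test called no comparison: the log2 fold change was 3.03 ± 1.07, adjusted p = 0.051 for phenylephrine against vehicle and 1.76 ± 1.08, adjusted p = 0.23 for IGF1 against vehicle. On the same 9 samples limma-voom called phenylephrine against vehicle (3.02, adjusted p = 0.0014) and phenylephrine against IGF1 (2.59, adjusted p = 0.0017), and edgeR with the filter of at least 1 CPM in 3 samples called phenylephrine against vehicle (3.02, adjusted p = 0.048). Phenylephrine against vehicle also passed without IGF1 replicate 2 (adjusted p = 0.037) or 3 (adjusted p = 0.038) and with only these groups compared (adjusted p = 6.3e-08). Without IGF1 replicate 1, phenylephrine against vehicle gave 3.03 ± 0.10, adjusted p = 6.8e-13, or 8.18-fold, and IGF1 against vehicle turned to -0.51 ± 0.14, adjusted p = 0.0071.

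Of the 7 calcium pore genes, 1 rose and 3 fell with phenylephrine, and 4 rose and 1 fell with IGF1. The T-type pores, which open near the resting potential and are prominent in immature myocytes, differed between the stimuli. Cacna1h had 104, 105 and 104 CPM in the phenylephrine samples, 198, 219 and 223 CPM in the IGF1 samples and 155, 155 and 152 CPM in the vehicle samples. The 3 groups were separate, and Cacna1h fell with phenylephrine (-0.56 ± 0.05, adjusted p = 9.8e-08) but rose with IGF1 (0.47 ± 0.04, adjusted p = 6.6e-07). Cacna1g had 203 ± 10.9 CPM with phenylephrine, 239 ± 15.7 CPM with IGF1 and 155 ± 5.3 CPM with vehicle. Cacna1g rose with both stimuli, at 0.39 ± 0.05, adjusted p = 1.9e-05 for phenylephrine and 0.62 ± 0.05, adjusted p = 2.5e-07 for IGF1.

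Cacna1s, the L-type pore of skeletal muscle, had 11.7, 9.75 and 13.6 CPM in the phenylephrine samples, 25.9, 23.2 and 23.8 CPM in the IGF1 samples and 12.3, 12.6 and 13.7 CPM in the vehicle samples. The IGF1 samples lay above all others, with a log2 fold change of 0.92 ± 0.10, adjusted p = 2.7e-06, while phenylephrine and vehicle overlapped (-0.14 ± 0.10, adjusted p = 0.28). Under scaling by library size alone, Cacna1s passed the threshold as lower with phenylephrine, at -0.33 (adjusted p = 0.015). Cacna1a, a presynaptic calcium pore, fell with phenylephrine (-0.79 ± 0.08, adjusted p = 1.1e-06) and rose with IGF1 (0.47 ± 0.08, adjusted p = 1.2e-04), at 10.5 ± 0.923 CPM with phenylephrine, 25.1 ± 1.53 CPM with IGF1 and 18.1 ± 0.674 CPM with vehicle. Cacna1e, an R-type pore, fell with IGF1 (-0.80 ± 0.21, adjusted p = 0.0050) and with phenylephrine (-0.59 ± 0.21, adjusted p = 0.025). The call for phenylephrine ended without phenylephrine replicate 3 (adjusted p = 0.13), vehicle replicate 1 (adjusted p = 0.062) or vehicle replicate 3 (adjusted p = 0.076). Cacna1d, the L-type pore of pacemaker cells, had 1.02 ± 0.104 CPM with phenylephrine, 1.6 ± 0.334 CPM with IGF1 and 1.39 ± 0.135 CPM with vehicle and passed only the direct comparison (-0.66 ± 0.24, adjusted p = 0.031). That call ended without phenylephrine replicate 2 (adjusted p = 0.092) or 3 (adjusted p = 0.074) or IGF1 replicate 2 (adjusted p = 0.12) or 3 (adjusted p = 0.092).

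The promoter of Cacna1s, the calcium pore with the largest rise with IGF1, holds a match to the M-CAT motif CATTCC on the reverse strand, shown in capitals (RefSeq, GRCr8, chr13:50045418-50045717, plus strand).
Cacna1s: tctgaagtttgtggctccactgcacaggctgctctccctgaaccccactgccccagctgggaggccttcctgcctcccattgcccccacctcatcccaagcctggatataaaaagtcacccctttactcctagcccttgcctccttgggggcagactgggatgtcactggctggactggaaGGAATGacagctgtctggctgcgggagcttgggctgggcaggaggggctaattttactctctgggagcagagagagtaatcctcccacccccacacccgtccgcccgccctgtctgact

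Of the 6 accessory subunit genes of calcium channels, 2 rose and 1 fell with phenylephrine, and 3 rose and 1 fell with IGF1. Cacnb2, the main cardiac beta subunit, which carries the pore to the membrane, had 285, 284 and 284 CPM in the phenylephrine samples, 217, 195 and 196 CPM in the IGF1 samples and 191, 193 and 201 CPM in the vehicle samples. Each phenylephrine sample lay above each other sample, with a log2 fold change of 0.54 ± 0.04, adjusted p = 1.2e-07, and IGF1 gave no call (0.06 ± 0.04, adjusted p = 0.32). Cacna2d1, the main cardiac alpha-2-delta subunit, had 130.2 ± 5.72 CPM with phenylephrine, 118 ± 5.63 CPM with IGF1 and 87.7 ± 2.94 CPM with vehicle. Cacna2d1 rose with phenylephrine (0.57 ± 0.05, adjusted p = 1.6e-07) and IGF1 (0.43 ± 0.05, adjusted p = 4.0e-06). Cacng6, a gamma subunit, rose with IGF1 (0.87 ± 0.11, adjusted p = 9.4e-06) and not with phenylephrine (-0.01 ± 0.11, adjusted p = 0.95). Cacna2d2, a further alpha-2-delta subunit, fell with phenylephrine (-0.38 ± 0.10, adjusted p = 0.0049) and rose with IGF1 (0.38 ± 0.09, adjusted p = 0.0046).

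Of the 3 Hcn genes, Hcn4 rose with IGF1 and Hcn2 fell with phenylephrine, and neither passed the test with the other stimulus. Hcn4, the main pacemaker pore of the sinus node, had 23.9, 26.2 and 27.2 CPM in the phenylephrine samples, 51.5, 61.4 and 58 CPM in the IGF1 samples and 25.3, 25.4 and 23.5 CPM in the vehicle samples. All IGF1 samples lay above all others, at 2.31-fold the vehicle level (1.21 ± 0.07, adjusted p = 4.4e-09), and phenylephrine gave no call (0.06 ± 0.07, adjusted p = 0.50). Hcn2, the ventricular form, had 10.3, 10.6 and 10.4 CPM in the phenylephrine samples, 19.6, 20.6 and 21 CPM in the IGF1 samples and 20.1, 19.1 and 20.7 CPM in the vehicle samples. Here the phenylephrine samples lay below all others, with log2 fold changes of -0.94 ± 0.07, adjusted p = 4.5e-08 for phenylephrine and 0.03 ± 0.07, adjusted p = 0.72 for IGF1. The direct comparison of the stimuli gave -1.15 ± 0.07, adjusted p = 4.4e-09 for Hcn4 and -0.97 ± 0.07, adjusted p = 2.6e-08 for Hcn2.

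The promoter of Hcn2 is shown as that of the pacemaker gene that fell with phenylephrine, and it holds a match to the M-CAT motif CATTCC, in capitals (RefSeq, GRCr8, chr7:10639408-10639707, minus strand).
Hcn2: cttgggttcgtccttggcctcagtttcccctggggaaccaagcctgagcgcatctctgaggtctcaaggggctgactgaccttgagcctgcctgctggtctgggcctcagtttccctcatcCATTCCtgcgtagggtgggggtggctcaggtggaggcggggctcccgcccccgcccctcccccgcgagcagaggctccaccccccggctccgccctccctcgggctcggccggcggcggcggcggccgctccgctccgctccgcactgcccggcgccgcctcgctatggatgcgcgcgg

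The 7 Clcn genes encode chloride channels of the cell surface and chloride-proton exchangers of vesicles, and 3 rose and 3 fell with phenylephrine. The vesicular exchangers Clcn3, Clcn5 and Clcn6 rose with both stimuli. Clcn3 had 112, 115 and 113 CPM in the phenylephrine samples, 98.4, 81.7 and 80.8 CPM in the IGF1 samples and 69, 72 and 67.3 CPM in the vehicle samples. Its groups were separate, with log2 fold changes of 0.71 ± 0.06, adjusted p = 3.6e-07 for phenylephrine and 0.32 ± 0.06, adjusted p = 7.2e-04 for IGF1. Clcn5 had 16.1 ± 0.577 CPM with phenylephrine, 14.5 ± 1.34 CPM with IGF1 and 9.65 ± 0.739 CPM with vehicle. Its log2 fold changes were 0.74 ± 0.09, adjusted p = 5.9e-06 for phenylephrine and 0.59 ± 0.09, adjusted p = 6.3e-05 for IGF1. Clcn6 rose with phenylephrine (0.49 ± 0.06, adjusted p = 1.3e-05), and its rise with IGF1 (0.22 ± 0.06, adjusted p = 0.010) ended without vehicle replicate 2 (adjusted p = 0.060) or 3 (adjusted p = 0.058) and by library size alone (adjusted p = 0.11).

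Clcn4, a further vesicular exchanger, showed the largest fall with phenylephrine among ion channel genes past the threshold with at least 1 CPM in a group. It had 0.824, 0.64 and 1.03 CPM in the phenylephrine samples, 4.05, 4.43 and 5.74 CPM in the IGF1 samples and 2.53, 3.2 and 3.93 CPM in the vehicle samples. The phenylephrine samples lay below all others, at a log2 fold change of -1.95 ± 0.24, adjusted p = 8.1e-06 against vehicle and -2.51 ± 0.24, adjusted p = 4.9e-07 against IGF1. Its rise with IGF1 (0.56 ± 0.19, adjusted p = 0.026) ended without IGF1 replicate 3 (adjusted p = 0.16), vehicle replicate 1 (adjusted p = 0.14) or vehicle replicate 2 (adjusted p = 0.074), and by library size alone (adjusted p = 0.069). Clcn7, the lysosomal exchanger, fell with both stimuli, at -0.29 for phenylephrine and -0.19 for IGF1.

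The TRP genes encode cation channels opened by receptors, lipids, calcium or stretch. Trpc6, a receptor-operated pore, had 13.6, 11.5 and 12.7 CPM in the phenylephrine samples, 6.71, 7.38 and 7.33 CPM in the IGF1 samples and 15, 16.9 and 15.6 CPM in the vehicle samples. The 3 groups did not overlap, and IGF1 lowered it (-1.14 ± 0.09, adjusted p = 1.1e-07) more than phenylephrine did (-0.33 ± 0.09, adjusted p = 0.0048), the direct comparison giving 0.81 ± 0.09, adjusted p = 3.3e-06.

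Trpc1, a subunit of receptor- and store-linked channels, had 25.8 ± 2.92 CPM with phenylephrine, 18.9 ± 0.182 CPM with IGF1 and 23 ± 1.27 CPM with vehicle. With phenylephrine against vehicle Trpc1 had no call as reported. It passed as higher without phenylephrine replicate 2 (0.24, adjusted p = 0.025) or without IGF1 replicate 1 (0.17, adjusted p = 0.029). The same held with only the 2 groups compared (0.17, adjusted p = 0.025). Trpc1 fell with IGF1 (-0.28 ± 0.08, adjusted p = 0.0078). Trpv2, a stretch-sensitive pore, also fell with IGF1 (-0.36 ± 0.09, adjusted p = 0.0044). Trpm4, a calcium-activated cation pore, and Trpm7, a magnesium-permeable pore joined to a kinase, fell with both stimuli. Trpm4 gave -0.39 ± 0.11, adjusted p = 0.0057 for phenylephrine and -0.39 ± 0.10, adjusted p = 0.0059 for IGF1. Trpm7 gave -0.30 ± 0.04, adjusted p = 1.2e-05 for phenylephrine and -0.29 ± 0.04, adjusted p = 2.4e-05 for IGF1. Trpc4ap, which is no channel, had log2 fold changes of -0.15 for phenylephrine and -0.14 for IGF1, both past the threshold.

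Some ion channel genes had opposite calls against vehicle, lower with phenylephrine and higher with IGF1: Cacna1a, Cacna1h, Cacna2d2, Clcn4, Kcnh2, Kcnj12 and Scn4b. Both comparisons share the vehicle samples. Each of these genes was also called lower with phenylephrine in the direct comparison. The sign there follows from the opposite changes against vehicle in the same fit and is no separate check. The rises of Clcn4 and Kcnh2 with IGF1 did not hold in every alternative fit, as given above. How many of all tested genes had opposite calls was not counted.

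The direct comparison of phenylephrine with IGF1 called 15 ion channel genes higher and 29 lower with phenylephrine, where 27.1% of all tested genes were higher and 27.1% lower. At least 1.5-fold, 6 were higher and 24 lower, where 7.65% of all tested genes were higher and 10.1% lower. The median log2 fold change was -0.28, against -0.00 for all tested genes, and without IGF1 replicate 1 the counts were 18 higher and 37 lower, where 30.4% of all tested genes were higher and 30.2% lower. Every phenylephrine sample lay above every IGF1 sample for 16 of the 93 and below for 33, where this held for 29.3% and 29.5% of all tested genes. Of the 44 calls, 36 held at the same threshold in every alternative fit that tested the gene. Of 34 tested potassium pore genes, 4 were higher and 16 lower. The largest falls past the threshold among genes of at least 1 CPM in a group were those of Clcn4, Kcnj12 (-1.77 ± 0.10, adjusted p = 3.3e-09), Scn4b (-1.77 ± 0.10, adjusted p = 1.0e-09), Kcnk5 (-1.36 ± 0.33, adjusted p = 0.0030), Cacna1a (-1.26 ± 0.08, adjusted p = 6.4e-09), Kcnj3 (-1.24 ± 0.16, adjusted p = 1.7e-05) and Kcnn3 (-1.23 ± 0.24, adjusted p = 4.6e-04).

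On the other side of that comparison, Kcne1 (1.07 ± 0.30, adjusted p = 0.0079), Trpc6 and Kcnj14 were the highest with phenylephrine among genes past the threshold with at least 1 CPM in a group, followed by Cacnb2 (0.49 ± 0.04, adjusted p = 3.3e-07), Trpv2 (0.48 ± 0.09, adjusted p = 4.8e-04) and Trpc1 (0.45 ± 0.08, adjusted p = 2.1e-04). The calcium beta subunit genes Cacnb1 (0.44 ± 0.13, adjusted p = 0.0078) and Cacnb3 (0.32 ± 0.07, adjusted p = 0.0017) were also higher with phenylephrine than with IGF1, so that all 3 beta subunit genes of the set lay on this side. Against vehicle, Cacnb1 passed with neither stimulus, and Cacnb3 was lower with IGF1 (-0.19 ± 0.07, adjusted p = 0.037), a call that ended in 9 of the alternatives tried. Among these were leaving out IGF1 replicate 2 or 3, any phenylephrine replicate, or vehicle replicate 1 or 3, with adjusted p between 0.052 and 0.12.

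**Figure D4:**
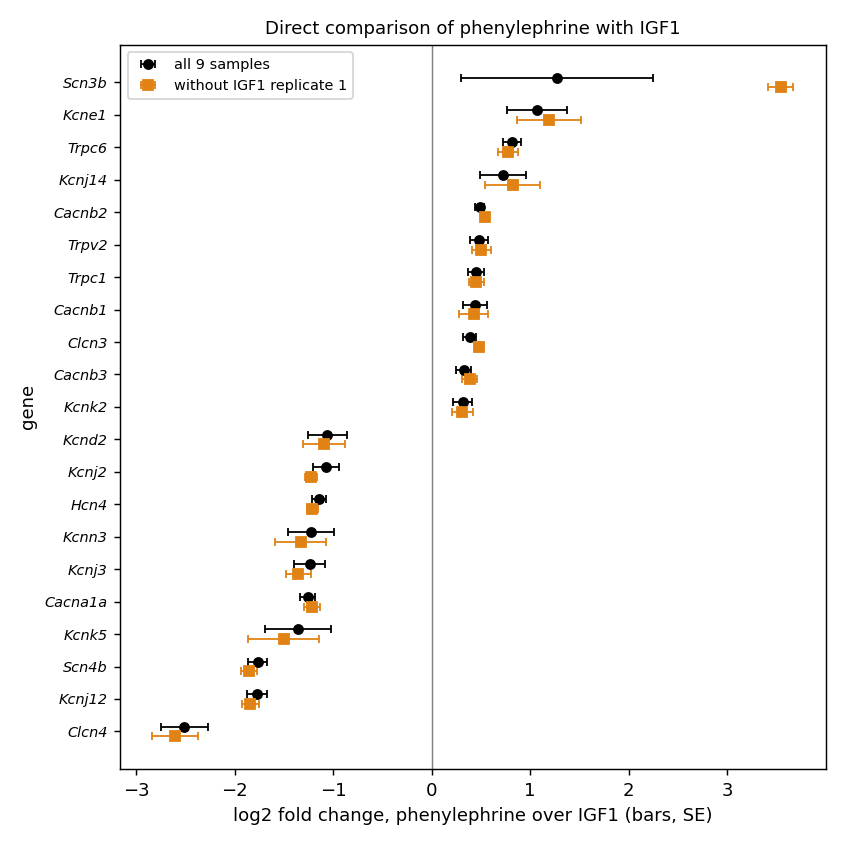
Log2 fold change of phenylephrine over IGF1 (horizontal axis, bars for the SE) of the 10 highest and the 10 lowest genes past the threshold with at least 1 CPM in a group, and of Scn3b (vertical axis), with all 9 samples and without IGF1 replicate 1. Scn3b moves to 3.55 without that sample, while the other genes keep their side of 0.

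By the correlation of log2 CPM over the 9 samples, given as a description because the groups drive it, the ion channel genes most like Kcnj2 were Kcnj11 (Pearson's r 0.96), Hcn2 (0.956) and Kcnj3 (0.956). Most like Kcne1 were Cacnb2 (0.891), Clcn3 (0.868) and Scn3b (0.786), and most like Kcnt2 were Clcn6 (0.968), Clcn3 (0.877) and Cacnb2 (0.856).

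The promoters of 64 of the 94 ion channel genes were found by symbol in the RefSeq table of GRCr8. Their median GC content was 62%, against 52.3% for all 27457 promoters, and it was 65.3% for the 27 that fell and 64.2% for the 8 that rose with phenylephrine. Searched on both strands in the same 300 bases, the M-CAT motif CATTCC occurred in 5 of 64 (7.81%) against 13.9% of all promoters, and the AP-1 motif TGANTCA in 2 (3.13%) against 7.33%. The CRE motif TGACGTCA occurred in 1 (1.56%) against 1.91%, and the RE1 part TTCAGCACC in 0 against 0.379%. A match gives letters in this window and is not evidence of binding.

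The proteins that work with these channels were taken as a list of 31 partners and modulators without a pore, 28 of them tested. With phenylephrine 9 rose and 13 fell, where 27.9% of all tested genes rose and 28.9% fell. With IGF1 14 rose and 7 fell, where 24.7% of all tested genes rose and 23.4% fell. The direct comparison had 7 higher and 12 lower with phenylephrine, where 27.1% of all tested genes were higher and 27.1% lower. Abcc9, the regulatory subunit of ATP-sensitive channels, had 75.6, 85.1 and 80.9 CPM in the phenylephrine samples, 148, 178 and 178 CPM in the IGF1 samples and 122, 123 and 119 CPM in the vehicle samples. It fell with phenylephrine (-0.59 ± 0.07, adjusted p = 5.2e-06) and rose with IGF1 (0.47 ± 0.07, adjusted p = 4.7e-05). Dpp6, which speeds the transient outward current, had 0.659 ± 0.151 CPM with phenylephrine, 0.641 ± 0.151 CPM with IGF1 and 1.77 ± 0.354 CPM with vehicle. Dpp6 fell with both, at -1.43 ± 0.28, adjusted p = 5.6e-04 for phenylephrine and -1.45 ± 0.27, adjusted p = 4.9e-04 for IGF1. Fgf11, an intracellular partner of sodium channels, stayed under 1 CPM in every sample and fell with phenylephrine (-1.47 ± 0.52, adjusted p = 0.026). The largest rises with phenylephrine were those of Sntb1, a syntrophin scaffold (1.25 ± 0.20, adjusted p = 5.6e-04), and Camk2b, a calmodulin-dependent kinase subunit (1.16 ± 0.19, adjusted p = 1.3e-04). Camk2b also had the largest rise with IGF1 (0.71 ± 0.19, adjusted p = 0.0072), next to the caveolin Cav3 (0.56 ± 0.04, adjusted p = 8.4e-08), and the anchoring protein Akap5 fell with IGF1 (-0.34 ± 0.09, adjusted p = 0.0064) and rose with phenylephrine (0.31 ± 0.09, adjusted p = 0.0089). In the direct comparison Sntb1 (0.82 ± 0.20, adjusted p = 0.0068) and Akap5 (0.66 ± 0.09, adjusted p = 3.1e-05) were the highest and Fgf11 (-1.47 ± 0.53, adjusted p = 0.028) and Abcc9 (-1.06 ± 0.07, adjusted p = 1.5e-08) the lowest.

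Of 24 transcription factors known for the control of cardiac channel genes, 22 were tested. With phenylephrine 3 rose and 10 fell, where 27.9% of all tested genes rose and 28.9% fell. With IGF1 3 rose and 9 fell, where 24.7% of all tested genes rose and 23.4% fell. For the direct comparison below, 27.1% of all tested genes were higher and 27.1% lower. Irx4, a ventricular Iroquois factor, had 68, 67.4 and 67 CPM in the phenylephrine samples, 189, 209.6 and 216 CPM in the IGF1 samples and 146, 148 and 147 CPM in the vehicle samples. The 3 groups did not overlap, and it fell with phenylephrine (-1.12 ± 0.05, adjusted p = 1.8e-10) and rose with IGF1 (0.48 ± 0.05, adjusted p = 8.3e-07). Irx3, an Iroquois factor of the conduction system, fell with both, at -0.92 ± 0.08, adjusted p = 3.7e-07 for phenylephrine and -0.76 ± 0.08, adjusted p = 3.0e-06 for IGF1. Gata4, a cardiac zinc finger factor, rose with phenylephrine (0.70 ± 0.09, adjusted p = 7.3e-05), and Tbx20, a T-box factor, rose with phenylephrine (0.28 ± 0.06, adjusted p = 0.0016) and IGF1 (0.21 ± 0.06, adjusted p = 0.012). Shox2, a factor of the sinus node, stayed under 1 CPM in every sample and fell with IGF1 (-1.32 ± 0.48, adjusted p = 0.033). In the direct comparison, in which 2 were higher and 6 lower with phenylephrine, Irx4 (-1.60 ± 0.05, adjusted p = 3.5e-12) and Irx1 (-0.96 ± 0.14, adjusted p = 3.9e-05) were the lowest, and Gata4 (0.58 ± 0.09, adjusted p = 2.9e-04) and Etv1 (0.31 ± 0.07, adjusted p = 0.0019) were the higher ones.

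Low levels limit the rest. Of the 94 ion channel genes, 25 averaged under 1 CPM in every group, and of the 42 with no call for phenylephrine 17 were among these. Kcnb2, a delayed rectifier pore, passed the read minimum but was not kept by the filter before the test. The 70 genes under the read minimum had at most 29 reads in a sample and 9 of them had none. They include Kcna5, a pore of the ultrarapid delayed rectifier current, and Clcn2, a surface chloride channel.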

How the data were processed

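Per the labels, NuGEN Ovation libraries of total RNA were run on a NovaSeq6000. The authors deposited 1 table of unnormalized read counts by gene, made with STAR, HTSeq and DESeq on build rn5, per the submitters' processing notes. Versions, the role of each tool and the use of strand are not given in the sources used here, so reads of overlapping or antisense genes cannot be told apart, and reads that near-identical copies share may be split. Genes are named by symbol, and 26 rows carry symbols turned into calendar dates and stay unnamed. Groups came from the sample titles.

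The edgeR function filterByExpr (minimum count 10, minimum total count 15) kept 11873 genes, 93 of them among the 94 ion channel genes. Counts were scaled by TMM factors and a robust quasi-likelihood model with a term for each group was fitted to the 9 samples (edgeR 4.0.16, R 4.3.3). Each of the 3 contrasts was tested two-sided, with Benjamini-Hochberg adjustment over all tested genes and a threshold of 0.05. The SE of a log2 fold change was taken as its size over the square root of the F statistic. Levels are CPM scaled by the TMM factors, and levels of different genes are not compared, since no transcript lengths were used. The scripts were tested on simulated data. Intervals cover counting error only.

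Named were, per contrast, the 10 largest rises and falls among genes past the threshold with at least 1 CPM in a group and no overlap of samples, a list of known cardiac channel genes, and the 2 highest and 2 lowest called genes of each partner list. Other genes were named after their values were seen. The ion channel genes, lists and tests were chosen with earlier results of these data known. Alternatives were DESeq2 1.42.0, limma-voom (limma 3.58.1), RLE factors, library size alone, no filter, at least 1 CPM in 3 samples, only the 2 groups compared, a replicate block, an adjusted p of 0.01, a 1.5-fold minimum and leaving out each sample. The limits of 0.01 and 1.5-fold were applied to the counts only. Calls of single ion channel genes were followed through the alternative fits that tested the gene. Calls of genes in the partner, transcription factor, other channel and exchanger lists were not followed in this way. Promoters came from a RefSeq table of GRCr8, the first listed where a gene has several. Protein sequences were not used here. Some genes that the lists or the naming rule take in are not reported here, and counts cover them.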

Additional observations from a re-analysis of the deposited data

How the results depend on the processing

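Of 279 pairs of a tested ion channel gene and a comparison, 136 passed the threshold. Of these, 109 kept call and sign at the same threshold in every alternative fit that tested the gene. Scn3b with IGF1 against vehicle was 1.76 as reported and -0.51 without IGF1 replicate 1, with a range of -0.51 to 2.27 when 1 sample at a time was left out. Library size alone moved the median of all tested genes to -0.22 for phenylephrine against vehicle, -0.08 for IGF1 against vehicle and -0.11 for phenylephrine against IGF1. In that setting 1751 of the 11873 tested genes rose and 5696 fell with phenylephrine, against 3310 and 3429 as reported. Of the 93 tested ion channel genes, 11 rose and 43 fell. The share that fell was thus no larger among ion channel genes than among all tested genes in that setting. With IGF1 against vehicle, library size alone gave 2031 higher and 3614 lower of all tested genes, against 2935 and 2781 as reported. In the direct comparison it gave 2132 higher and 4366 lower, against 3215 and 3222 as reported.

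With a 1.5-fold minimum, the counts of higher ion channel genes were 8 with phenylephrine and 12 with IGF1 against vehicle, 9 were lower with IGF1, and 6 were higher with phenylephrine than with IGF1. The median log2 fold change of the ion channel genes with phenylephrine was -0.25 with limma-voom, -0.39 by library size alone, -0.31 with at least 1 CPM in 3 samples and -0.25 with only the 2 groups compared. By library size alone it was -0.030 with IGF1 against vehicle and -0.40 with phenylephrine against IGF1. Leaving out 1 sample at a time gave 11 to 14 ion channel genes higher and 32 to 39 lower with phenylephrine (median -0.28 to -0.17). Of the 11906 to 12035 genes tested in these fits, 2849 to 3749 were higher and 3075 to 3875 lower. With IGF1, 19 to 25 ion channel genes were higher and 16 to 20 lower (median 0.01 to 0.06). Of all tested genes, 2394 to 3292 were higher and 2408 to 3194 lower. The direct comparison gave 10 to 18 higher and 27 to 37 lower (median -0.31 to -0.22). There 2794 to 3662 of all tested genes were higher and 2876 to 3638 lower.

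Calls not kept throughout included, with phenylephrine, Cacna1e, Kcnd1, Kcne5, Kcnj8, Kcnk2, Kcns3 and Trpm8. With IGF1 they included Cacnb3, Clcn4, Clcn6, Kcna6, Kcnc1, Kcne5, Kcnh2, Kcnk5 and Kcnq3, and in the direct comparison Cacna1d, Cacna2d1, Clcn6, Kcng4, Kcnj14, Kcnk2, Kcnq3 and Kcnt2. Genes without a call as reported that gained one in an alternative numbered 7 with phenylephrine, 10 with IGF1 and 15 in the direct comparison. The causes were not tested.

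Same-numbered samples did not deviate together: over 9 pairs the correlation of deviations from the group means was -0.08 to 0.02. With a replicate block, 13 ion channel genes rose and 38 fell with phenylephrine (median -0.19). Of all 11873 tested genes, 3253 rose and 3395 fell in that fit. With IGF1 21 ion channel genes rose and 19 fell (median 0.03), where 2871 of all tested genes rose and 2723 fell. In the direct comparison 15 were higher and 28 lower (median -0.28), where 3167 of all tested genes were higher and 3145 lower. Depth limits the 25 genes under 1 CPM, where 1 CPM rests on 29.1 to 51.6 reads.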

Other observations

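Of 42 ion channel genes of families outside the name rule, 34 were tested. With phenylephrine 10 rose and 6 fell, where 27.9% of all tested genes rose and 28.9% fell. With IGF1 7 rose and 7 fell, where 24.7% of all tested genes rose and 23.4% fell. In the direct comparison 13 were higher and 6 lower with phenylephrine, where 27.1% of all tested genes were higher and 27.1% lower. P2rx5, an ATP-gated cation channel, had 32, 32.6 and 29.7 CPM in the phenylephrine samples, 20.1, 12.5 and 14.6 CPM in the IGF1 samples and 9.18, 8.89 and 7.44 CPM in the vehicle samples. All treated samples lay above all vehicle samples, and it rose with phenylephrine (1.89 ± 0.15, adjusted p = 2.0e-06) and with IGF1 (0.88 ± 0.15, adjusted p = 8.4e-04). Clic5, an intracellular chloride channel protein, rose with phenylephrine (1.16 ± 0.13, adjusted p = 1.2e-04), at 588, 618 and 617 CPM against 280.5, 280.1 and 257 CPM in the vehicle samples. Lrrc8c, a subunit of volume-regulated anion channels, was higher with phenylephrine than with IGF1 (1.08 ± 0.09, adjusted p = 6.6e-08), and Lrrc8b, a further subunit, was lower (-0.65 ± 0.12, adjusted p = 3.9e-04). Stim1, the store calcium sensor, had 22.1, 20.7 and 24.1 CPM in the phenylephrine samples, 39.1, 43.2 and 45.6 CPM in the IGF1 samples and 35, 33.4 and 33.6 CPM in the vehicle samples. It fell with phenylephrine (-0.61 ± 0.07, adjusted p = 3.3e-06) and rose with IGF1 (0.33 ± 0.07, adjusted p = 8.3e-04), and the store-operated pore gene Orai3 fell with both, at -0.58 ± 0.10, adjusted p = 2.1e-04 for phenylephrine and -0.32 ± 0.10, adjusted p = 0.015 for IGF1. With IGF1 the lysosomal channel Mcoln1 (-0.46 ± 0.07, adjusted p = 1.2e-04) and the inositol trisphosphate receptor Itpr2 (-0.44 ± 0.09, adjusted p = 6.0e-04) had the largest falls, and the acid-sensing Asic1 rose (0.49 ± 0.17, adjusted p = 0.029).

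Of 18 ion exchangers, cotransporters and their partners, 17 were tested. With phenylephrine 6 rose and 4 fell, where 27.9% of all tested genes rose and 28.9% fell. With IGF1 2 rose and 3 fell, where 24.7% of all tested genes rose and 23.4% fell. Without IGF1 replicate 1 the IGF1 counts were 7 higher and 4 lower, where 27.4% of all tested genes rose and 26.6% fell. In the direct comparison 7 were higher and 4 lower with phenylephrine, where 27.1% of all tested genes were higher and 27.1% lower. Slc8a1, the cardiac sodium-calcium exchanger, had 2130.5 ± 45.5 CPM with phenylephrine, 1495 ± 147 CPM with IGF1 and 1361 ± 49.6 CPM with vehicle (SD, n = 3 each). It rose with phenylephrine (0.65 ± 0.06, adjusted p = 4.6e-07) and was higher with phenylephrine than with IGF1 (0.51 ± 0.06, adjusted p = 4.9e-06). Slc12a7, a potassium-chloride cotransporter, also rose with phenylephrine (0.62 ± 0.16, adjusted p = 0.014). Slc26a6, an anion exchanger (-0.71 ± 0.10, adjusted p = 2.1e-05), fell with phenylephrine. With IGF1 the scaffold Slc9a3r2 (-0.49 ± 0.06, adjusted p = 2.1e-05) and the cotransporter Slc12a2 (-0.44 ± 0.06, adjusted p = 2.7e-05) had the largest falls, and Slc4a3 (0.20 ± 0.05, adjusted p = 0.0030) and Slc12a4 (0.15 ± 0.05, adjusted p = 0.020) rose. Slc4a4, the sodium bicarbonate cotransporter, was lower with phenylephrine than with IGF1 (-0.66 ± 0.07, adjusted p = 2.0e-06).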
